A study of Mus musculus with 80 samples.

Results

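The wild-type mouse embryonic stem cell (ESC) lines E14 and UHRF1 WT were compared by reduced representation bisulfite sequencing (RRBS) after 168 h in 2i medium, with 2 libraries per line. These were 4 of the 80 samples of a series that followed DNA methylation while ESCs passed from serum medium to 2i, in wild-type lines and in lines lacking *Uhrf1* or the *Tet* genes. Serum medium contained fetal calf serum and leukemia inhibitory factor (LIF), and 2i was a serum-free medium with LIF and the inhibitors PD0325901, against MEK, and CHIR99021, against GSK3. The labels gave both lines a wild-type genotype, E14 as background strain and ESC as cell type, and UHRF1 WT was the control line of the *Uhrf1* knockout. No allele or agent other than the medium was named for the 4 libraries, and the sources used here did not say whether UHRF1 WT cells carried floxed alleles or received the tamoxifen that was given to floxed lines 48 h before an experiment. Each line stood for 1 wild-type background, and since the libraries of a line were not said to come from separate cultures, p-values measure only the spread between libraries, which may be technical. Line, library preparation and sequencing run cannot be told apart, and no RNA of these 4 samples was at hand to check the ESC label against marker genes. The units compared were 35769 autosomal tiles of 500 bp that held 20 or more calls and 3 or more cytosine positions in every one of the 4 libraries. A call is 1 read of 1 cytosine as methylated or unmethylated, and the methylation level of a tile is the percent of its calls that were methylated.

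In mammals, DNA methylation sits mainly on cytosines of CpG dinucleotides and is copied after replication by DNMT1, which UHRF1 guides to half-methylated sites and to histone H3 methylated at lysine 9. In 2i this copying is weakened and most of the genome loses methylation with cell division, while some elements and imprinted regions keep it. CpG-dense promoters are largely free of methylation in ESCs in either medium, and imprinted regions carry methylation on the allele of 1 parent.

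Of 10 promoters called between the lines, 4 are shown first, a pair for each direction, because the time courses described further on turn on them. Each is a window of 300 bases, from 250 before to 50 after the annotated start of the gene, taken from RefSeq on the mouse build GRCm38.p6, written 5′ to 3′ on the strand of the gene. Capitals mark all CpGs of a window, of which each library read only some. The *Plagl1* window lay at chr10:13090582-13090881 on the plus strand and held 26 CpGs. The *Clcn4* window lay at chr7:7299508-7299807 on the minus strand and held 27. The *Rpl39l* window, at chr16:10169978-10170277 on the plus strand, held 17 CpGs, and the *Tmem267* window, at chr13:119488223-119488522 on the plus strand, held 50.
Plagl1: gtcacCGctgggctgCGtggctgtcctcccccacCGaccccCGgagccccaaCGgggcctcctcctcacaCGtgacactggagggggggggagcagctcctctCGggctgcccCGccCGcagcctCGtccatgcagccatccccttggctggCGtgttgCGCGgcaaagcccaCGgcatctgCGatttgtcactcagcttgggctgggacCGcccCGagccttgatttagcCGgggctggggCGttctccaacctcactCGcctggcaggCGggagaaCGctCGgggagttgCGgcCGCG
Clcn4: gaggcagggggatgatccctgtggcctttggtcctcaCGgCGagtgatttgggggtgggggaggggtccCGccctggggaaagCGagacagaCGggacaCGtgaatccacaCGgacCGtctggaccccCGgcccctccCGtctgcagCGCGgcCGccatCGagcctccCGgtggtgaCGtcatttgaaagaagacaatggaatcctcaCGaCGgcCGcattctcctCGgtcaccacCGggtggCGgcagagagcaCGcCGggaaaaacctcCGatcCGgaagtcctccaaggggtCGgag
Rpl39l: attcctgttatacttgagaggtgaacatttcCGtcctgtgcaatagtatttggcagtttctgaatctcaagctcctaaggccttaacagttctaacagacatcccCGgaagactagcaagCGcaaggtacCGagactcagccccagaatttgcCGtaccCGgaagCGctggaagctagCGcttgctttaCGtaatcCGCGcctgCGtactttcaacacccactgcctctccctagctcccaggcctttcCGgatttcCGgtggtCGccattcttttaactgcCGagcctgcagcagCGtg
Tmem267: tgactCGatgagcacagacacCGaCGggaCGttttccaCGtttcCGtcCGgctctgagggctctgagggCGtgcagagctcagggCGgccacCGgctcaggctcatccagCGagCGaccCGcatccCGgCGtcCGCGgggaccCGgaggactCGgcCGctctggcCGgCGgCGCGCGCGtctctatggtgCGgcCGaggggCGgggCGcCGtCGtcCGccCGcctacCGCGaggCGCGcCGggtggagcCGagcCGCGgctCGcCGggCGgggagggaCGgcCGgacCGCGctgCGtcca
The first and second were more methylated in E14 at 168 h and the other two in UHRF1 WT. They differ in CpG density, and at all 4 the lines already differed in serum, as given below.

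The E14 libraries held 15793149 and 30654219 calls and the UHRF1 WT libraries 6834172 and 4067629, so that E14 was read more deeply in both. Over 221419 autosomal positions with 5 or more calls in all 4 libraries, mean methylation was 7.20% and 7.30% in E14 and 8.33% and 8.26% in UHRF1 WT. Both E14 libraries lay below both UHRF1 WT libraries, by 1.05 points between the means (7.25% ± 0.0761 against 8.30% ± 0.0513, SD, n = 2). The exact two-sided permutation test over libraries gave p = 0.333, the smallest value that 2 libraries against 2 allow. When each library was read at all of its own positions with 5 or more calls, the levels were 11.1% and 8.55% in E14 and 10.3% and 9.49% in UHRF1 WT, the libraries overlapped, and the difference between the means was 0.0479 points in the same direction. The order of the lines in global methylation therefore held on shared positions and could not be seen on each library's own positions.

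Most tiles carried little methylation in either line at 168 h. Of the 35769 tiles, 68.8% lay under 5% in all 4 libraries and 82.3% differed by less than 5 points between the lines. Much of this was low before 2i, since 25226 tiles lay below 20% in serum. The median difference between lines was -0.07 points and the mean -1.68 points (E14 minus UHRF1 WT). Across tiles, Pearson's r was 0.978 between the E14 libraries, 0.939 between the UHRF1 WT libraries and 0.920 to 0.936 between lines. These r values describe tiles of the same libraries and share their CpG density, and the lower one within UHRF1 WT came with the shallower libraries.

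Against this background, 646 tiles (1.81%) differed between the lines in a quasi-binomial fit on methylated and unmethylated calls. Such a tile, here named called, had line means 20 points or more apart and a p under 0.05 after Benjamini-Hochberg adjustment. UHRF1 WT was higher in 578 of them (1.62% of tiles) and E14 in 68 (0.190%). The median difference was -28.0 points in the first group and 27.6 points in the second. In all 646 the libraries of the lines did not overlap, as in 34.4% of all tiles (14.7% with E14 higher and 19.7% with UHRF1 WT higher). On chromosome X, kept apart from the autosomes, 8 of 476 tiles were called (1.68%). At the threshold of 20 points, 41 called tiles lay from 20 to under 21 points and 44 tiles that passed the adjusted p lay from 19 to under 20. The libraries of UHRF1 WT themselves lay 20 points or more apart at 1259 tiles, and those of E14 at 127. Within called tiles the median absolute difference between the libraries of a line was 8.48 points in UHRF1 WT and 3.73 in E14. Over all tiles it was 0.893 and 0.443.

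The excess in favor of UHRF1 WT was smaller when the p-values were centred. With the lines centred on their median logit difference for the p-values alone, 393 tiles were called. Of these, 74.0% rather than 89.5% were higher in UHRF1 WT, and 102 were higher in E14. The difference of line means and its direction were still taken from uncentred levels, so the excess between fully centred lines was not tested. The fit gave every tile 1 shared dispersion of 1.49, so that a tile's own spread did not enter, and 458 tiles were called when the larger of the shared and the own dispersion was taken. With limma on log2 ratios, which estimates a spread from the 4 values of a tile, no tile reached an adjusted p under 0.05, while 6833 had an unadjusted p under 0.05 (4163 in the quasi-binomial fit). Without the first UHRF1 WT library 294 tiles were called.

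**Figure D1:**
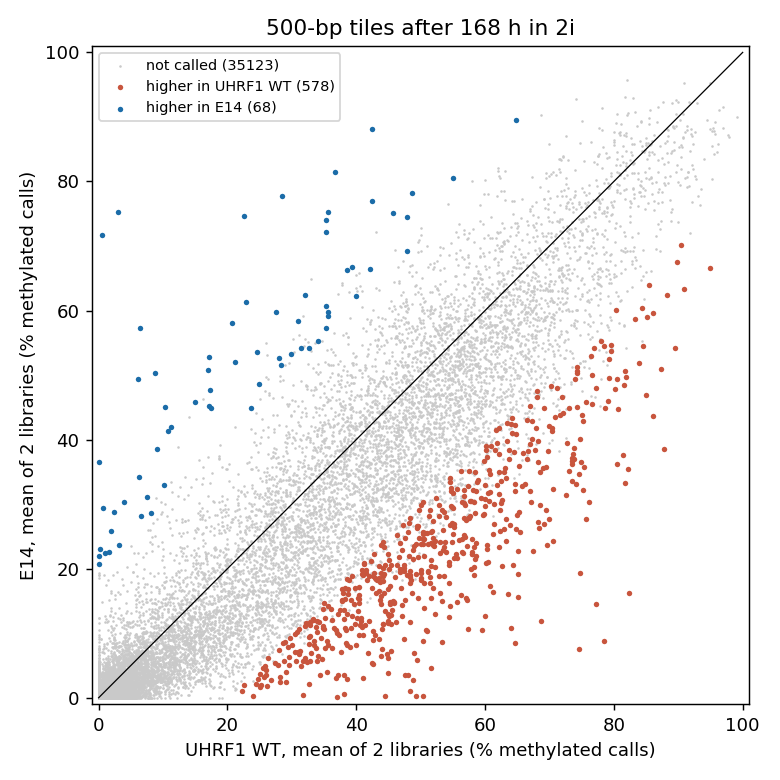
Methylation of 35769 autosomal 500-bp tiles at 168 h in 2i, as the mean of 2 libraries in UHRF1 WT (horizontal axis, percent) and in E14 (vertical axis, percent), with the line of equality. Grey tiles were not called, 578 red tiles were higher in UHRF1 WT and 68 blue tiles were higher in E14, and the grey mass near the origin holds the 68.8% of tiles under 5% in all 4 libraries.

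Called tiles lay mostly among those methylated in serum. The threshold largely sets this, since a tile under 20% in both lines at 168 h cannot be called. Tiles under 20% in serum had means of 0.501% in E14 and 0.741% in UHRF1 WT at 168 h. Among tiles under 20% in serum (mean of both lines) 5 of 25226 were called, and among those from 60% to under 80% the count was 216 of 2209 (9.78%). In the class of 80% and over, 301 of 5403 were called (5.57%), and these tiles stood at 44.3% in E14 and 49.7% in UHRF1 WT at 168 h. By chromosome the called share ran from 1.08% on chromosome 11 to 2.64% on chromosome 18. By the fewest positions read in any of the 4 libraries, 3.58% of tiles with 3 to 5 and 3.75% with 6 to 10 positions were called, against 1 of 4917 tiles with over 40. These classes also differed in E14 methylation (25.7%, 16.8% and 0.403%) and in median calls (23, 30 and 207), whose part in the shares was not tested.

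H3K9me2, the mark read by UHRF1, had been measured in the series by immunoprecipitation followed by bisulfite sequencing (ChIP-BS), and its bound-over-input ratio in 2i was taken here over windows of 10000 bp. The paper describes the 2i cells of this measurement as long-term 2i ESCs, and the sample titles name neither hours nor UHRF1 WT. The ratio is therefore not a measure of the mark at 168 h in each line. In the 10% of tiles with the highest H3K9me2, 240 of 3578 were called (6.71%), and in the lowest 10% 14 of 3576 (0.391%). The highest class was also more methylated (29.1% in E14 and 33.6% in UHRF1 WT, against 5.11% and 5.94% in the lowest). Within tiles of 60% or more in serum the called shares were 9.01% (179 of 1987) in the highest class, 6.32% (326 of 5160) in the middle and 2.59% (12 of 463) in the lowest. All 12 called tiles of that lowest class were higher in UHRF1 WT, as were 158 of the 179 in the highest. The share of the methylation level in the H3K9me2 classes was not tested.

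The tiles with the largest differences were named among called tiles with 50 or more calls in every library and no overlap between lines, a set of 8 tiles higher in E14 (0.0224% of tiles) and 84 higher in UHRF1 WT (0.235%). All 8 of the first kind are given. The tile at chr9:3888001-3888500 (build NCBIM37, as for all tiles) held 79.0% and 71.6% in E14 and 47.1% and 24.2% in UHRF1 WT. At chr19:53772501-53773000 the levels were 22.7% and 35.9% in E14 and 1.37% and 0% in UHRF1 WT, and at chr2:152512501-152513000 they were 29.1% and 22.4% against 1.92% and 1.79%. Both of these tiles were near 0 in UHRF1 WT and partly methylated in E14. The tile at chr7:70899501-70900000 was alike, with 24.4% and 23.0% in E14 and 3.96% and 2.25% in UHRF1 WT, although in serum the lines had stood at 42.3% and 41.4% and at 42.8%. The least certain was chr8:130422501-130423000, at 51.5% and 63.0% in E14 and 24.6% and 46.2% in UHRF1 WT, whose call was lost without the second E14 library, without the first UHRF1 WT library (adjusted p = 0.788) and with its own dispersion (adjusted p = 0.600, quasi-binomial fit).

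The 3 other tiles higher in E14 overlapped promoter windows. At chr10:12810501-12811000, over *Plagl1*, a maternally methylated imprinted gene for a zinc-finger transcription factor, E14 held 75.9% and 72.2% and UHRF1 WT 37.2% and 33.3%. All 30 positions with 3 or more calls in every library were higher in E14. The tile at chr7:7252001-7252500 over *Clcn4*, which encodes a chloride/proton exchanger of endosomes, held 23.0% and 23.0% in E14 and 0% and 0.508% in UHRF1 WT. At chr11:93747501-93748000 over *Mbtd1*, a chromatin reader with malignant brain tumor repeats, the levels were 25.5% and 19.7% against 2.24% and 1.14%. Of 14 comparable positions there, only 5 were higher in E14 and 0 in UHRF1 WT. The *Mbtd1* promoter window itself was not among the 10 windows called. Another tile with a large difference, at chr1:172975001-172975500, fell outside the rule because 1 library had 48 calls there, and was picked out after its values were seen. It held 66.4% and 76.9% in E14 and 1.14% and 0% in UHRF1 WT.

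Of the tiles higher in UHRF1 WT, the widest difference among those named was at chr10:56427501-56428000, with 20% and 18.6% in E14 and 75% and 74.5% in UHRF1 WT (-55.5 points, adjusted p = 2.97e-17). The line UHRF1 WT had held 71.5% there in serum and 61.9% to 78.5% in all of its 2i libraries, while E14 went from 45.1% and 33.7% in serum to those 168 h levels. Next to it in kind was chr12:89218001-89218500, at 17.1% and 15.7% in E14 and 61.9% and 60.6% in UHRF1 WT, after 29.8% and 39.7% and 67.6% in serum. At both tiles the UHRF1 WT libraries thus stood near their serum level after 168 h.

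At the other named tiles both lines had lost methylation and E14 had less. The tile at chr18:82899001-82899500 held 32.7% and 33.9% in E14 and 82.1% and 81.2% in UHRF1 WT. At chr9:115018501-115019000 the levels were 21.5% and 23.9% against 69.4% and 60.9%. Both had stood above 67% in every serum library. At chr7:17357001-17357500 E14 held 27.5% and 13.3% and UHRF1 WT 65.2% and 60%, and at chr10:76032501-76033000 E14 held 10.2% and 11% and UHRF1 WT 48.6% and 53.0%. Only 1 run of 3 or more called tiles within 5000 bp of each other was found in either direction. It spanned chr4:155504501-155511000, with 3 of 3 tested tiles called, means of 23.9% and 25.1% in E14 and of 69.5% and 84.5% in UHRF1 WT, and a mean difference of -52.5 points.

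Of the remaining named pair, chr13:120277001-120277500 lay over the divergent start of *Tmem267*, a transmembrane protein gene, and 3110070M22Rik, and chr13:120277501-120278000 lay 60 bp from the window of 3110070M22Rik. The levels were 0% and 0.539% in E14 and 47.3% and 53.5% in UHRF1 WT in the first tile and 1.97% and 0.190% against 52.7% and 44.0% in the second. Read depth also differed here. The first tile took 26.3 and 30.6 calls per 1000000 autosomal calls in E14 and 161 and 167 in UHRF1 WT, a ratio of 5.76 that 0.0615% of all tiles exceeded, and as little as 23.4% of a library's calls in it fell on positions read in all 4 libraries. On those shared positions the difference was -58.1 points and was called again, whereas the second tile could not be tested on shared positions. The *Clcn4* tile differed in depth in the other direction, with 131 and 178 calls per 1000000 in E14 and 28.9 and 49.3 in UHRF1 WT, a ratio of 0.254 below which lay 0.0112% of all tiles. The part of these depth differences in the methylation differences was not tested. The second chr13 tile had a ratio of 2.71, and chr7:17357001-17357500 one of 2.38, with 56.4% of a library's calls on shared positions, where its difference was -37.9 points and was called. The other 7 named tiles higher in E14 had ratios from 0.784 to 1.22, and the median over all tiles was 0.987.

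Gene starts were examined directly by locating the RefSeq promoter windows among the positions of the files. Of 4890 windows (4492 genes) with 20 or more calls and 3 or more positions in all 4 libraries, 95.5% lay under 5% in every library. The lines differed at 10 windows (0.204%), with E14 higher at 6 (0.123%) and UHRF1 WT higher at 4 (0.0818%), in the same fit and at the same thresholds. Of all tiles 18.6% overlapped a located window, as did 4 of the 68 called tiles higher in E14 (5.88%) and 6 of the 578 higher in UHRF1 WT (1.04%). A call needs a mean of 20% or more in 1 line, which 38 of the 4890 windows reached, so few calls were possible at gene starts. With limma on log2 ratios 5 windows were called, those of *Clcn4*, *Rab24*, *Rpl31*, *Tmem267* and 3110070M22Rik. Intervals and limits given below cover counting error only.

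The largest promoter difference in favor of E14 was at *Plagl1* and the overlapping noncoding gene *Hymai*. The *Plagl1* window held 71.6% (95% Wilson interval 65.0 to 77.3) and 77.0% (72.6 to 81.0) in E14 and 32.1% (24.0 to 41.5) and 21.4% (11.7 to 35.9) in UHRF1 WT. The difference of 47.6 points (adjusted p = 1.43e-15, quasi-binomial fit) had all 7 positions that could be compared higher in E14. The *Hymai* window shares most of these CpGs and held 73.1% and 78.1% against 33.3% and 23.4%. The lines had differed before 2i as well. E14 held 94.4% and 86.5% at *Plagl1* in serum and 74.2% to 95.1% in its 24 to 96 h libraries, whereas UHRF1 WT held 21.1% in its usable serum library and 19.3% to 48.8% from 24 to 96 h. All 10 E14 libraries from serum to 96 h therefore lay above all 9 UHRF1 WT libraries. UHRF1 KO stood at 60% and 59.0% in serum and TET WT at 15.9% and 7.92%, so that the wild-type lines of the series were spread over most of the range.

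The lines were apart at *Clcn4* at every time and at *Col6a5* mainly late in 2i. The *Clcn4* window held 23.1% and 23.0% in E14 at 168 h and 0% (0 of 191 calls, which allows up to 1.57%) and 0.510% in UHRF1 WT, and all 18 comparable positions were higher in E14. UHRF1 WT stayed at 1.11% or less in every library from serum on, while E14 held 23.2% to 56.4% from serum to 96 h. UHRF1 KO, in contrast to its control line, held 62.5% and 56.1% in serum and 38.3% and 40% at 168 h. At *Col6a5*, which encodes a collagen VI chain, the lines stood close in serum, with 83.6% and 82.1% in E14 and 79.7% in UHRF1 WT. At 96 h the levels were 65.4% and 70.1% against 40.8% and 35.3%, and at 168 h 47.3% and 58.3% against 31.9% and 21.6% (adjusted p = 0.00528, quasi-binomial fit). The *Col6a5* call was lost when either UHRF1 WT library or the second E14 library was left out.

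*Rab24*, for a small GTPase linked to autophagy, and *Rpl31*, for a protein of the large ribosomal subunit, were partly methylated in E14 and at or near 0 in UHRF1 WT at 168 h. *Rab24* held 22.8% and 25.8% in E14 against 1.27% and 0% (0 of 20 calls, which allows up to 15%). *Rpl31* held 20.6% and 27.0% in E14 against 0% of 23 and 0% of 22 calls, which allow up to 13% and 13.6%. Depth at these windows was low in UHRF1 WT. The *Rab24* call was lost without the first UHRF1 WT library, and the *Rpl31* call without either UHRF1 WT library and without the second E14 library. In the UHRF1 WT libraries from 24 to 96 h *Rab24* held at most 1.41%. The usable UHRF1 WT serum library did not match the 2i libraries of its line at these genes, with 33.8% at *Rab24* and 34.3% at *Rpl31*, and the *Mbtd1* tile was likewise at 20.3% in that library and at most 2.67% in the 2i libraries.

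UHRF1 WT was higher at *Rpl39l*, a paralog of a ribosomal protein gene used mainly in testis, at the noncoding Gm15455 and at the *Tmem267* pair. *Rpl39l* held 10.7% and 14.1% in E14 and 50.9% and 40% in UHRF1 WT (-33.1 points, adjusted p = 2.79e-12, quasi-binomial fit), with all 9 comparable positions higher in UHRF1 WT. In serum it had held 40% and 50.2% in E14 and 93.2% in UHRF1 WT, and no library of E14 at any time reached the lowest UHRF1 WT library of the same time. Gm15455 held 15.2% and 13.7% in E14 and 45.2% and 45.7% in UHRF1 WT, after 53.2% and 56.9% and 95.4% in serum. At *Tmem267* the levels were 0% of 373 calls, which allows up to 0.804%, and 0.474% in E14, and 48.2% and 54.5% in UHRF1 WT. They had been 2.66% and 1.32% against 74.0% in serum. Of 16 comparable positions 9 were higher in UHRF1 WT and 1 in E14. UHRF1 KO held 27.4% to 46.6% and TET WT 57.4% to 63.8% over all of their libraries, so that E14 was the line that stood apart at this start. Called tiles also overlapped the windows of *Aldoart2*, a testis form of aldolase (20.8% and 19.6% against 64.4% and 40%), of *Slc25a31*, a mitochondrial carrier of germ cells (22.6% and 14% against 39.3% and 44.0%), and of Gm34081 (44.8% and 55.2% against 82.5% and 70.8%).

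**Figure D2:**
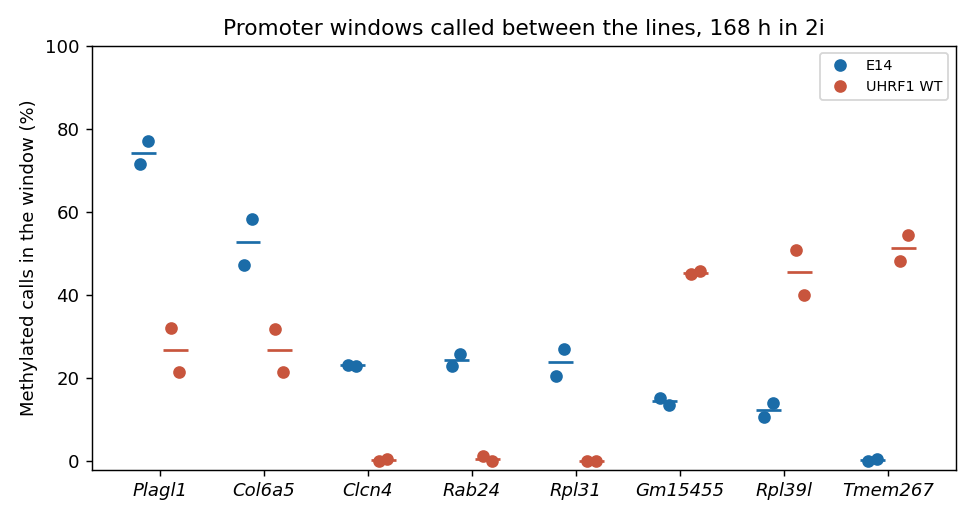
Methylated calls (percent, vertical axis) in the promoter windows of 8 genes called between E14 (blue) and UHRF1 WT (red) after 168 h in 2i, with a point for each of 2 libraries per line and a bar at their mean. The 5 genes on the left were higher in E14 and the 3 on the right higher in UHRF1 WT, and *Clcn4*, *Rab24*, *Rpl31* and *Tmem267* were at or near 0 in 1 line.

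Windows below the 20-point threshold that passed the adjusted p were few among methylated genes. *Vmn2r29*, a pheromone receptor gene on chromosome 7 like *Clcn4*, held 30.8% and 26.3% in E14 and 15.5% and 5.13% in UHRF1 WT. 2610027F03Rik held 0.645% and 4.49% against 23.1% and 18.8%, and *Magohb*, a paralog of an exon junction complex subunit, 8.08% and 7.94% against 31.5% and 10.5%. None of the 3 was called.

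Lists of genes with a known relation to methylation were read at the same windows. Of 55 imprinted genes 7 had a window, and among their 9 windows those of *Plagl1* and *Hymai* were called. *Commd1*, imprinted in brain, had 1 window at 36.0% and 44.7% in E14 and 21.8% and 46.0% in UHRF1 WT, with overlap between the lines. The windows of *Gnas*, *Igf2*, *Gab1* and *Grb10* lay at or below 2.08% in all 4 libraries. Of 33 germline genes 7 had a window and none of the 8 windows was called (0.204% of all windows were), with a median difference of -4.89 points beside a median of 0 over all windows, of which 95.5% were under 5%. *Hormad1* counts in it with 2 nearly identical windows. The methylated ones were *Sycp1*, of the synaptonemal complex, at 34.0% and 31.9% in E14 and 42.9% and 36.4% in UHRF1 WT, *Tex101*, a sperm surface protein, at 39.2% and 46.5% against 60% and 50.0%, *Hormad1*, of the meiotic chromosome axis, at 12.6% and 10.3% against 21.2% and 13.8%, and *Mael*, a piRNA pathway factor, at 9.34% and 7.68% against 9.93% and 14.5%. None of these passed the test, and of the little methylated ones *Tdrkh* and *Terb1* had the higher mean in E14 (0.581% and 1.06%, against 0% and 0%).

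Few genes that act in the 2i transition had a located window. Of 32 pluripotency and MEK pathway genes 6 had a window (*Klf2*, *Klf4*, *Tfcp2l1*, *Fgf5*, *Dusp6* and *Spry2*), and of 22 factors of DNA and H3K9 methylation 9 had one, among them *Uhrf1*, *Dnmt1*, *Dnmt3b*, *Tet2* and *Ehmt2*. The line means at these windows ran from 0% to 2.82%, and none of the 16 windows was called, beside 0.204% of all windows. *Uhrf1* itself held 0.353% and 0% in E14 and 0% and 0% in UHRF1 WT.

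Before the lines are followed back in time, 1 library has to be set apart. Depth on chromosome 8, as the median over tiles of a library's share of calls relative to the E14 mean and scaled to the middle chromosome, was 1.15 to 1.23 in the 10 UHRF1 WT libraries in 2i and 0.975 to 1.02 in the 12 E14 libraries. The usable UHRF1 WT serum library stood at 0.995, among the E14 libraries, while UHRF1 KO stood at 1.12 to 1.22 in serum and 2i. On chromosome 14 the ratio was 1.07 in that library, 1.08 to 1.13 in the UHRF1 WT 2i libraries, 1.05 to 1.06 in the E14 libraries of 24 and 72 h and 0.960 to 0.980 in the other E14 libraries. At *Rab24*, *Rpl31* and the *Mbtd1* tile the library labelled UHRF1 WT serum was likewise near E14, whereas its levels of 1.11% at *Clcn4*, 74.0% at *Tmem267* and 21.1% at *Plagl1* lay on the side of the UHRF1 WT 2i libraries. The TET WT serum libraries were near it at the first group as well (37.7% and 29.9%, 26.6% and 34.3%, and 22.6% and 21.4%). At the *Commd1* window the UHRF1 WT serum library was near neither, with 1.64% of 183 calls. E14 held 26.2% and 49.4% there in serum, UHRF1 WT 36.25% to 53.5% from 24 to 96 h, and TET WT 0% and 0% in serum. Whether the UHRF1 WT serum library holds only UHRF1 WT cells was not tested, and every serum value of that line rests on it. The second UHRF1 WT serum file held 6 positions and was not used. Results that start from serum are therefore given also from 24 h in 2i. That start has its own limit. Over 35226 tiles the E14 mean was 19.4% in serum, 21.3% at 24 h and 17.3% at 48 h. Every result from 24 h starts from this higher E14 level. Without chromosomes 8 and 14, 574 tiles were called at 168 h (63 higher in E14) and global methylation was 7.14% and 7.25% in E14 and 8.26% and 8.19% in UHRF1 WT.

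**Figure D3:**
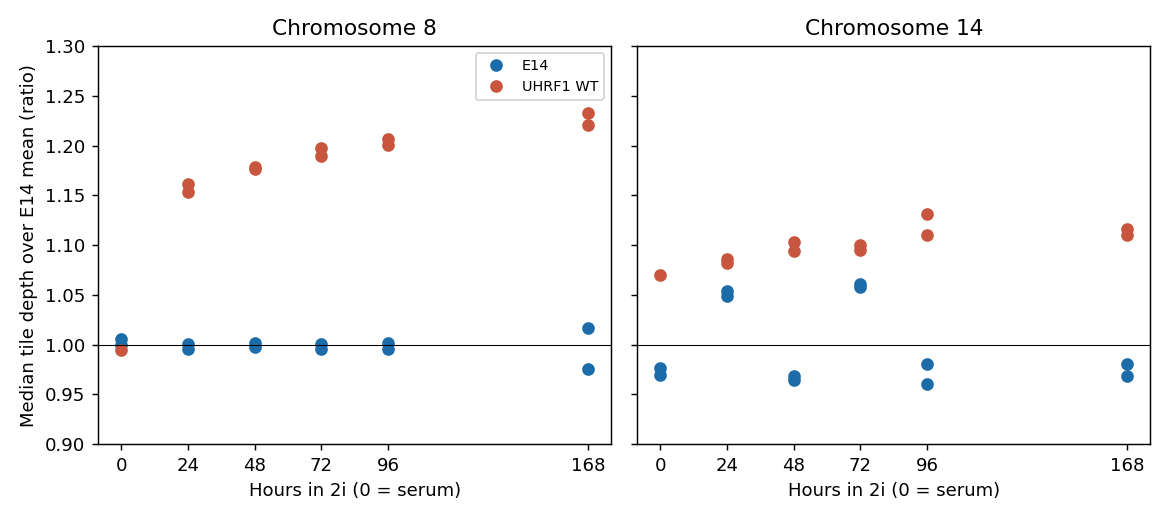
Relative depth of chromosome 8 (left) and chromosome 14 (right) in each E14 (blue) and UHRF1 WT (red) RRBS library against hours in 2i, where 0 is serum and 1 on the vertical axis is the E14 mean (ratio, axis from 0.9). On chromosome 8 the red serum point at 0.995 lies with E14 and the 10 red points in 2i lie from 1.15 to 1.23.

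Over the whole time course UHRF1 WT was the more methylated line. The mean over 35226 tiles covered in every library was 19.4% ± 0.382 in E14 and 25.4% in the single UHRF1 WT library in serum. It was 21.3% ± 0.438 and 23.4% ± 0.113 at 24 h, 17.3% ± 0.0909 and 21.8% ± 0.0694 at 48 h, and 14.9% ± 0.124 and 18.9% ± 0.109 at 72 h (SD, n = 2). The lines were closer at 96 h, with 13.7% ± 0.0865 and 15.7% ± 0.0792, and at 168 h, with 8.69% ± 0.0662 and 10.3% ± 0.00034. E14 lay below UHRF1 WT at every time, without overlap of libraries. Over serum to 96 h, which the choice of tiles called at 168 h did not involve, the mean difference was -3.72 points (exact two-sided permutation of lines within times, p = 0.000257, the smallest that 3888 arrangements can give). From 24 h on, without serum, it was -3.13 points (exact permutation, p = 0.00154). Both p-values treat the times as separate, although each time is a further reading of the same 2 lines. They therefore do not measure how far other wild-type lines would differ. The E14 mean was higher at 24 h than in serum, with 924 tiles 20 points or more higher and 11 as much lower. In UHRF1 WT 57 tiles were as much higher and 343 as much lower.

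In points the difference of the means was smallest at 168 h, while as a share of the UHRF1 WT mean the E14 mean was 76.2% in serum and, from 24 to 168 h, 91.1%, 79.5%, 78.5%, 87.6% and 84.1%, with no steady order. In serum, 4114 of 35714 tiles were called between the lines (11.5%), 4070 higher in UHRF1 WT (11.4%) and 44 higher in E14 (0.123%), with 1 UHRF1 WT library that borrows its spread from the other groups. At 24 h in 2i, 1065 of 35506 tiles were called (3.00%), with 936 higher in UHRF1 WT (2.64%) and 129 in E14 (0.363%). Of the 568 tiles called higher in UHRF1 WT at 168 h and tested at 24 h, 157 (27.6%) were called so at 24 h, and these were 16.8% of the tiles called in that direction at 24 h. For E14 the counts were 24 of 68 (35.3%, and 18.6% of those called so at 24 h). None was called in opposite directions at 24 and 168 h. In serum 349 of 575 tiles called higher in UHRF1 WT at 168 h were called so (60.7%, and 8.57% of those called so in serum), as were 17 of 68 for E14 (25%, and 38.6%), and 1 tile was called in opposite directions.

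Followed in the libraries that the 168 h test did not use, tiles called higher in UHRF1 WT mostly had the same direction at every time, and those called higher in E14 did so in most tiles at the 2i times and in 36 of 68 in serum. Of tiles called higher in UHRF1 WT, the UHRF1 WT mean was higher in 570 of 577 in serum and, through 24, 48, 72 and 96 h, in 549 of 574, 574 of 578, 572 of 576 and 556 of 576, beside 68.5%, 59.1%, 50.8%, 50.1% and 55.1% of tiles that were not called. Their mean was 61.5% in E14 and 87.2% in UHRF1 WT in serum, 43.1% and 65.6% at 96 h. Of the 68 tiles called higher in E14, E14 was higher in 36 in serum and, through 24, 48, 72 and 96 h, in 48, 47, 51 and 65, beside 30.3%, 38.3%, 48.1%, 49.1% and 41% of tiles not called. These tiles had means of 76.5% in E14 and 67.3% in UHRF1 WT in serum, and of 65.5% and 42.3% at 96 h. In serum the mean difference between lines was 9.15 points in the E14 group, with a median of 2.27, and -25.8 points in the UHRF1 WT group, with a median of -23.3. The tiles not called were mostly low in serum, with medians of 1.15% and 1.92% in E14 and 2.05% in UHRF1 WT. They are therefore no matched background for the directions of called tiles. Over 7961 tiles at 40% or more in serum in both lines, UHRF1 WT was also the higher line, at 90.8% against 75.3% in E14.

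**Figure D4:**
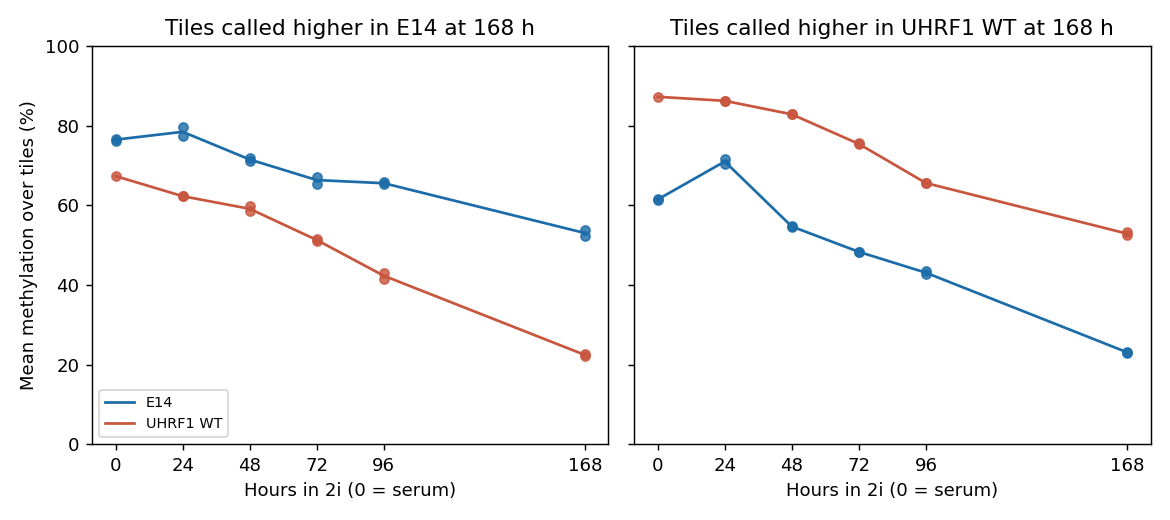
Mean methylation (percent, vertical axis) of the tiles called higher in E14 (left) and higher in UHRF1 WT (right) at 168 h, against hours in 2i (0 is serum), with a point for each library of E14 (blue) and UHRF1 WT (red) and lines through the means. On the left the lines part from 76.5% and 67.3% in serum, and on the right they are apart at every time, by 25.8 points in serum.

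Some tiles near 0 in 1 line at 168 h had been near 0 in all of its 2i libraries. Of the 68 tiles higher in E14, 11 lay under 5% in both UHRF1 WT libraries at 168 h, and 3 of these did so in every UHRF1 WT library in 2i, among them the *Clcn4* and *Mbtd1* tiles. In the UHRF1 WT serum library only 1 of the 11 lay under 5%. Of the 578 tiles higher in UHRF1 WT, 30 lay under 5% in both E14 libraries, and 2 did so in every E14 library in 2i. The 30 had a median of 22.4% in E14 in serum and 77.0% in UHRF1 WT.

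How much of its methylation each line kept depended on the starting library. Over 7961 tiles at 40% or more in serum in both lines, E14 went from 75.3% to 36.5% and UHRF1 WT from 90.8% to 42.2%, which is 48.5% ± 0.319 and 46.5% ± 0.667 of the serum level (SD over the 168 h libraries, n = 2). From 24 h in 2i, over 8535 tiles, E14 went from 76.9% to 34.1% and UHRF1 WT from 84.3% to 39.8%, or 44.4% ± 0.303 and 47.2% ± 0.640. The line that kept more changed with the start, from E14 by 1.97 points to UHRF1 WT by 2.85 points. As given above, the E14 mean over tiles was higher at 24 h than in serum, and the part of this in the reversal was not tested.

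The change from start to 168 h was also compared tile by tile with an interaction term of line and time. From serum it differed between the lines at 1112 tiles (3.11%), and at 1090 of them UHRF1 WT lost more (3.05%) and at 22 E14 did (0.0616%). From 24 h in 2i it differed at 108 tiles (0.304%), 70 with the larger loss in UHRF1 WT (0.197%) and 38 in E14 (0.107%). Of the 1112 tiles 43 were among those called at 168 h, beside 1.81% of all tiles (646 of 35769). Most of all tiles lay below 20% in serum, where 5 of 25226 were called, so they are no matched background. Among tiles at 40% to under 60%, 60% to under 80% and 80% or more in serum, 7.03%, 9.78% and 5.57% were called. Both calls also use the same 168 h libraries. The chr2:173116001-173116500 tile had the widest difference from serum, with 11.1% and 12.6% in E14 and 92.8% in UHRF1 WT in serum and 10.0% and 4.17% against 16.7% and 13% at 168 h. At 24 h it held 40.4% and 27.3% in E14 and 69.2% and 70.8% in UHRF1 WT, a smaller gap than in serum. At 48 h it held 6.67% and 6.45% in E14 and 61.8% and 64.9% in UHRF1 WT, so that the gap was wider again than at 24 h. The opposite case was chr2:174126001-174126500, located 16131 bp from the *Gnas* window, where E14 went from 45.7% and 54.3% to 34.6% and 38.3% and UHRF1 WT held 14.6% in serum and 46.3% and 50.0% at 168 h. In the UHRF1 WT libraries from 24 to 96 h it held 35.6% to 55.3%, so the contrast rests on the UHRF1 WT serum library that stood apart.

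**Figure D5:**
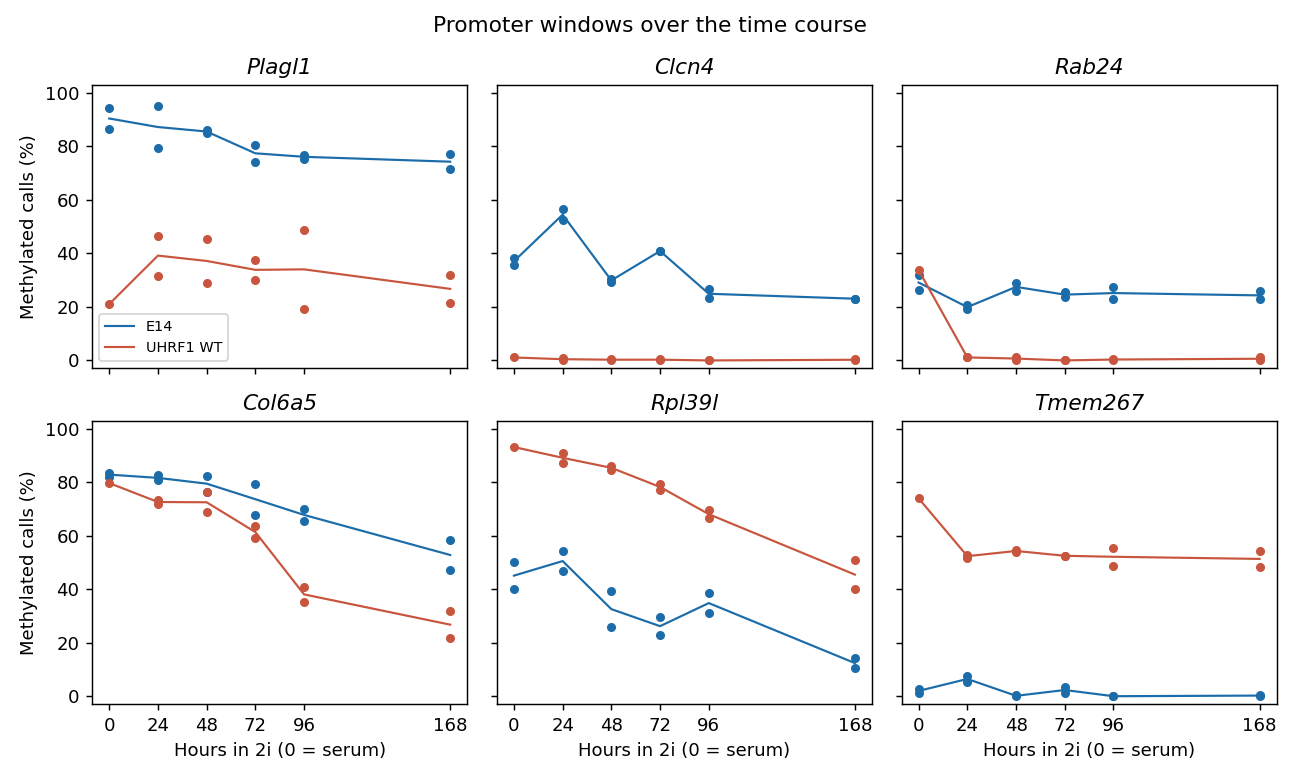
Methylated calls (percent, vertical axis) in 6 promoter windows in each E14 (blue) and UHRF1 WT (red) library against hours in 2i (0 is serum, with 1 UHRF1 WT library), with lines through the means. *Plagl1*, *Clcn4*, *Rpl39l* and *Tmem267* are apart at all 6 times, *Col6a5* stands close in serum and furthest apart at 96 h, and the UHRF1 WT serum point of *Rab24* at 33.8% stands above the 2i points of its line.

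RNA had been measured in E14 but not in UHRF1 WT, so that no promoter difference could be set beside a difference in expression between the lines. In E14, *Plagl1* stood at -0.90 to -0.34 in 3 serum libraries and 1.13 to 2.17 in 3 libraries at 72 h in 2i, on the log2 scale of the deposited values. *Col6a5* stood at -0.37 to 0.05 in serum, -6.15 to -5.89 at 24 h and -2.67 to -1.72 at 72 h. *Rab24* lay from 3.52 to 4.28 and *Rpl31* from 7.09 to 9.23 over all 12 libraries. Of the genes whose windows were called lower in E14, 3110070M22Rik lay from -4.84 to -2.73 and *Rpl39l* from 3.46 to 5.57. In serum and at 24 and 72 h, the times with both RNA and RRBS, the E14 windows held 30.2% to 51.6% at *Rpl31*, 1.14% to 9.21% at 3110070M22Rik and 22.7% to 54.4% at *Rpl39l*. The *Rab24* window held 23.6% to 31.9% in serum and at 72 h and, at 24 h, 20.8% in the first library and less in the second. No E14 RNA library of the series was from 168 h.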

How the data were processed

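RRBS libraries of E14 and UHRF1 WT ESCs were read from the coverage files deposited by the authors, which list per cytosine position on NCBIM37 the methylated and unmethylated counts and the percent methylated. The submitters' processing notes name Trim Galore 0.3.5, Bismark 0.12.3, Bowtie2, TopHat2 2.0.11 and the builds GRCm38 and NCBIM37, without saying which tool made which file. The deposited counts were summed over 500-bp tiles, so the deposited percent column was not used for tests, and H3K9me2 ChIP-BS counts were summed in the same way over 10000 bp, without positions of more than 20 calls in a library. The E14 RNA values were deposited by the authors on a log2 scale and were read without change.

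Tiles and promoter windows with 20 or more calls and 3 or more positions in each of the 4 libraries were tested with a quasi-binomial F test whose dispersion was moderated with limma 3.58.1 (R 4.3.3), with Benjamini-Hochberg adjustment over all tiles or windows. The moderation gave each tile the same dispersion. A call needed an adjusted p under 0.05 and a difference of line means of 20 points or more. The test was checked on simulated data. Single values were compared by exact permutation over libraries. The files had no genome on their build at hand, so RefSeq promoter windows (GRCm38.p6) were located by matching the spacing of their CpGs to the positions in the files. A total of 3 matching settings were tried before promoter levels were compared, and 8233 windows of 7474 genes were located once on the expected chromosome, out of 32851. Named tiles were the 8 with the largest difference in each direction among called tiles with 50 or more calls in every library and no overlap, the runs of 3 or more called tiles within 5000 bp, and the 3 tiles in each direction with the largest difference in the change from serum and no overlap at 168 h. Promoter windows were outside this rule and were added later, and all 10 called ones are named. The few other windows were picked after their values were seen. For leaving-out fits in which a line kept 1 library, that library was assumed to vary like the others. The comparison and the gene lists were chosen with earlier results of these data known. The Python 3.11.15 packages were numpy 2.4.6 and pandas 2.3.3.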

Additional observations from a re-analysis of the deposited data

Results flagged for a closer look

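The change from serum to 168 h in 2i differed between E14 and UHRF1 WT at 1112 tiles by the interaction test, and the change from 24 h to 168 h at 108. The widest differences of the changes with the larger loss in UHRF1 WT were 73.1 points at chr2:173116001-173116500, 70.5 points at chr18:38728501-38729000 and 68.8 points at chr6:145094001-145094500. At the second of these E14 went from 28.4% and 30.8% to 11.2% and 14.2% and UHRF1 WT from 89.1% to 3.57% and 0%. At the third E14 went from 35.7% and 30% to 9.52% and 4.94% and UHRF1 WT from 98.8% to 4.55% and 4.17%.

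The widest with the larger loss in E14 were -47.9 points at chr6:66959001-66959500, -47.2 points at chr2:174126001-174126500 and -46.5 points at chr2:180024501-180025000. At the first the UHRF1 WT level was 34.0% before 2i and 80% and 55.0% after 168 h, and its libraries at 96 h held 13.3% of 30 calls and 80% of only 5 calls. At the third the UHRF1 WT level was 12.9% in serum, 23.6% and 41.2% at 24 h and 29.4% and 39.0% at 168 h, against 41.9% and 47.9% in serum and 16.1% and 23.3% at 168 h in E14. All of these differences were computed from 1 UHRF1 WT serum library, whose depth on chromosome 8 was that of E14. At 24 h the UHRF1 WT libraries held 75% and 78.6% at chr18:38728501-38729000, against 45.2% and 53.2% in E14, and 88.9% and 86.5% at chr6:145094001-145094500, against 43.2% and 46.4%.

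Chromosome X was outside the comparison of autosomal tiles. Of its 476 tiles 8 were called between the lines (1.68%), 2 of them higher in E14, with means over tiles of 5.91% and 5.74% in E14 and 6.99% and 6.90% in UHRF1 WT. Over all calls on the chromosome the levels were 36.7% and 18.6% in E14 and 35.8% and 35.4% in UHRF1 WT. The second E14 library stood apart there, with calls on X at 1.19% of its autosomal calls beside 1.77% to 1.79% in the other 3 libraries.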

How the results depend on the processing

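The tiles called at 168 h numbered 985 (108 higher in E14, 877 in UHRF1 WT) with 10 calls as minimum, 92 (8 and 84) with 50, 1147 (115 and 1032) without a minimum difference, 259 (26 and 233) with one of 30 points, 0 (0 and 0) with limma on log2 ratios, and 393 (102 and 291) after centring of the p-values alone. Leaving out 1 library gave 294 to 588 in all (26 to 69 and 268 to 519), with 294 without the first UHRF1 WT library, and 43 higher in E14 without the second E14 library and 42 without the second UHRF1 WT library. Promoter windows numbered 5 with limma and 8 to 14 with a library left out. The median tile difference was 0 from mean position percents, -0.131 with 10 calls, -0.0268 with 50, -0.0195 on shared positions and -0.0754 to 0 with a library left out.

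Tiles called in serum numbered 7988 with 10 calls, 593 with 50 and 0 with limma (6532 at unadjusted p under 0.05). Those with a differing change from serum numbered 1806, 174 and 0 (4359 unadjusted), 499 to 1238 with a library left out (577 without the second E14, 499 without the first and 706 without the second UHRF1 WT library), and 108 from 24 h. The share kept differed by 0.808 points for tiles of 60% or more and by -2.85 points from 24 h, the one result that reversed. The called share in the highest H3K9me2 class was 5.17% with wider classes and 2.51% with 50 calls, and in the lowest 0% with 50 calls. The cause of these changes was not tested.

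Equally numbered libraries did not deviate together (r = 0.0177 over 9449 tiles). These deviations include counting error, so this r cannot show whether the numbers pair the samples. With the replicate block 515 tiles (51 and 464) and 8 promoter windows were called, without *Col6a5* and *Rpl31*. The 16 named tiles of 168 h kept their direction under every alternative that gave a value and lost their call with limma (adjusted p = 0.0756 to 0.399). With a library left out, chr7:70899501-70900000 fell under 20 points (19.9 without the first E14, 19.8 without the second UHRF1 WT library), as did the *Mbtd1* tile (18 without the first E14 library). Settings chosen after seeing the data, such as a tile's own dispersion and leaving out chromosomes 8 and 14, gave 458 and 574 tiles.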

Other observations

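Called tiles included some with a large difference in read depth between the lines. UHRF1 WT over E14 calls per 1000000 lay above the 99th percentile of all tiles, a ratio of 2.40, at 23 called tiles and below the 1st percentile, 0.557, at 19 of the 646, beyond each of which lie 1% of all tiles. Of the 646 called tiles 545 were called again when read on positions with a call in all 4 libraries.

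*Rpl39l* was higher in UHRF1 WT than in E14 at every time, while its levels in TET WT were 47.5% and 50.7% in serum, beside 40% and 50.2% in E14, and in UHRF1 KO 91.7% and 82.8%, beside 93.2% in UHRF1 WT. *Rab24* and *Rpl31* were at 37.7% and 29.9% and at 26.6% and 34.3% in TET WT in serum, and at 14% and 14.8% and at 0% and 8.82% in UHRF1 KO.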
